A study of Drosophila melanogaster with 3 samples.

Results

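Divergent promoters are stretches of DNA that lie between the starts of a pair of genes transcribed in opposite directions, away from each other. Among the summits of Eip75B ChIP-seq peaks in prepupae of Drosophila melanogaster, 859 of 7803 (11%) lay at such promoters. A summit, the base of strongest enrichment within a peak, was taken when it lay within 1 kb of a transcription start of a minus-strand protein-coding gene and within 1 kb of a start of a plus-strand one, with the minus-strand start to the left. Positions alone chose these summits, and their signal, their recovery in the replicates and their sequence were not used.

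The animals were mixed-sex prepupae of the strain Eip75B-MiMIC-GFP, in which an eGFP exon in an intron of Eip75B makes the gene's product a GFP fusion. Chromatin of whole animals was precipitated with an antibody against GFP. There is 1 group with 3 biological replicates, all carrying the insertion, and no second condition, so the values describe a mixture of all tissues. The authors deposited a list of 7803 optimal peaks for the group and a list of 30000 regions for each replicate, whose 7803 highest-signal regions are called its top list here. No source used here states a read number, so depth is unknown, and intervals cover counting error only. A control library is named as possible in the labels and was not analysed here. The labels give the age as unknown. With 3 replicates, the exact sign-flip permutation test (two-sided) cannot give a p below 0.25, so differences are given with their spread over replicates.

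Eip75B, or E75, is a nuclear receptor induced by the moulting hormone ecdysone, and it shares its DNA site, an AGGTCA core preceded by A and T bases, with the receptor Hr3. Divergent promoters in the fly often serve housekeeping genes, which are active in most cells. Many carry the DRE, the site of the replication-related factor DREF, the overlapping site of the insulator protein BEAF-32, or Motif 1, the site of M1BP.

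The sequences below run from 50 bp left of the summit to 50 bp right of it, from the plus strand of the Release 6 genome (dm6). Capitals mark matches to the E75/Hr3 site ANTAGGTCA, its core AGGTCA, the DRE TATCGATA or Motif 1 GGTCACACT, on either strand. The first 3 are the strongest divergent-promoter summits, and none holds a match. They lie at chrX:2703832-2703932 between Ugalt and eIF2Bbeta, at chr3R:31404617-31404717 beside PNPase and Gprk2, and at chr2L:13835405-13835505 between mRpS23 and CenG1A.

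Ugalt and eIF2Bbeta: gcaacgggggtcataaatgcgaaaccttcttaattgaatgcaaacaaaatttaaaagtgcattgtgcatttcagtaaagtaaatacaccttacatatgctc
PNPase and Gprk2: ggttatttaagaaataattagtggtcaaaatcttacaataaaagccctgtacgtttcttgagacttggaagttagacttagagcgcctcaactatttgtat
mRpS23 and CenG1A: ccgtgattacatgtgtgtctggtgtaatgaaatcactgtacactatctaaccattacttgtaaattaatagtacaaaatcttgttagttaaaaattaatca

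The next windows show where motifs sit when present. The DRE windows, at the ribosomal gene RpS25 with CG4820 (chr3R:11216291-11216391) and at the splicing factor gene SF2 with pad (chr3R:16342078-16342178), have signals of 372 and 332. The Motif 1 windows lie beside the ribosomal stalk genes RpLP0 (chr3L:22075984-22076084) and RpLP1 (chr2L:419851-419951). The E75/Hr3 windows lie between CG15011 and CG1309 (chr3L:4259309-4259409) and between CROT and CG12877 (chr3R:27706883-27706983).

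RpS25 and CG4820: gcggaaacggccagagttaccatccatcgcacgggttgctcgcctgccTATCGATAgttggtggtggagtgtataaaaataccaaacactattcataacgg
SF2 and pad: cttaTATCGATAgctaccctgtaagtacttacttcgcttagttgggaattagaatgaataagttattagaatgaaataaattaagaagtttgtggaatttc
CG7130 and RpLP0: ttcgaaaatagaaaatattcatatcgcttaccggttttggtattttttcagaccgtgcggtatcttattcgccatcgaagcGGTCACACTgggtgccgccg
CG13690 and RpLP1: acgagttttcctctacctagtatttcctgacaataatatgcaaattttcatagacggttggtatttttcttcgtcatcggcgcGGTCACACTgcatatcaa
CG15011 and CG1309: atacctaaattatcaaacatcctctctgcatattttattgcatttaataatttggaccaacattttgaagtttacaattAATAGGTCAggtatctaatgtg
CROT and CG12877: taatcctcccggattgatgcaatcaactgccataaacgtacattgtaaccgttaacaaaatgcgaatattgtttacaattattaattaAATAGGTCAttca

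Summits were about 2.08 times as dense within 200 bp of the starts of divergent promoters as within 200 bp of other starts, on average over the replicates. Within 200 bp of the nearest start, the optimal list held 382 summits per Mb at divergent promoters (720 summits in 1.89 Mb, 95% exact Poisson interval 354 to 411) and 208 per Mb at other promoters (1037 summits in 4.99 Mb, interval 195 to 221). In replicates 1, 2 and 3, the top lists held 452, 450 and 390 summits per Mb at divergent promoters, against 179, 249 and 204 per Mb at other promoters. The replicate values of divergent and other promoters did not overlap, and the ratio was 2.08 ± 0.386 (SD, n = 3; exact sign-flip permutation test of the difference, two-sided, p = 0.25, the smallest that 3 replicates allow). Farther out the order was the other way round. Beyond 200 and up to 500 bp, the top lists held 73.6 ± 2.96 summits per Mb at divergent promoters and 111 ± 5.06 at other promoters (SD, n = 3), and the replicate values again did not overlap. With starts within 250 bp in place of 1 kb, the log2 ratio within 200 bp was 1.91, against 1.04 here. This distance is that to the nearest start of any protein-coding gene, so summits and sequence were compared at the same distances from that start. Sequence inside narrow divergent promoters is included, and it lies near the starts of both genes. The part of that in the ratio was not tested.

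**Figure D1:**
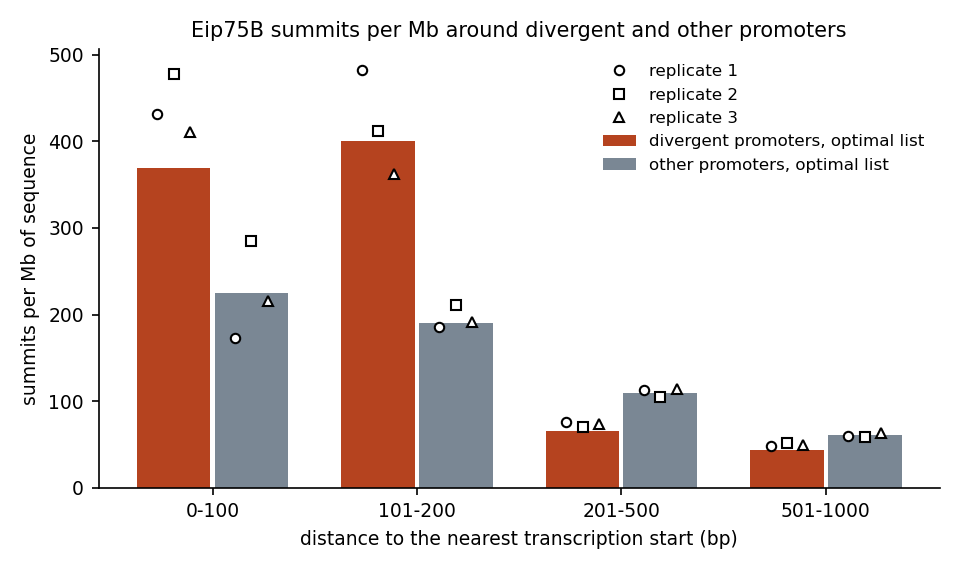
Summits per Mb of sequence (y axis) by distance to the nearest transcription start in bp (x axis), for sequence within 1 kb of a divergent pair of starts and for other sequence within 1 kb of a start. Bars are the optimal list and symbols are the top lists of the 3 replicates. Up to 200 bp every replicate is higher at divergent promoters, and beyond that every replicate is lower there.

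The same held when genes rather than bases were counted. Of 6198 genes with a divergent partner, that is, with a start at most 2 kb from a start of a gene on the other side, 1952 (31.5%, 95% exact interval 30.3% to 32.7%) had an optimal summit within 1 kb of a start. Among the 7747 genes with no such partner the number was 1344 (17.3%, interval 16.5% to 18.2%), and over all 13945 protein-coding genes the share was 23.6%. The shares in the replicates' top lists were 34.4% ± 1.61 with a partner and 17.3% ± 0.936 without one (SD, n = 3), higher with a partner in 3 of 3 replicates (exact sign-flip permutation p = 0.25). Genes with a partner can be reached by a summit at their neighbour's start, and the part of that in the difference was not tested. Among genes with 1 annotated start, the shares were 24.0% with a partner and 11.3% without. Through divergent-promoter summits alone, 1583 genes (11.4% of all) were reached.

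Over all pairs of genes whose starts diverge at a gap of up to 2 kb, 839 of 3499 (24.0%) had a summit within 1 kb of both starts. Pairs with a gap over 200 and up to 500 bp were bound most often, 421 of 1209 (34.8%, 95% exact interval 32.1% to 37.6%). Of those with 1 to 100 bp, 119 of 429 (27.7%) were bound, of those with over 100 and up to 200 bp 89 of 357 (24.9%), and of those with over 500 and up to 1000 bp 178 of 672 (26.5%). In the top lists, the pairs over 200 and up to 500 bp apart reached 41.4%, 42.3% and 35.2% in replicates 1, 2 and 3, above every other class in each replicate. Above 1000 and up to 2000 bp, 32 of 832 pairs (3.85%) were bound. The stretch within 1 kb of both starts has a median length of 482 bp in that class and of 1688 bp in the class from 200 to 500 bp, so the low share there comes with a shorter stretch. A single summit was counted at 738 of the bound pairs, 2 at 95 and 3 at 6.

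**Figure D2:**
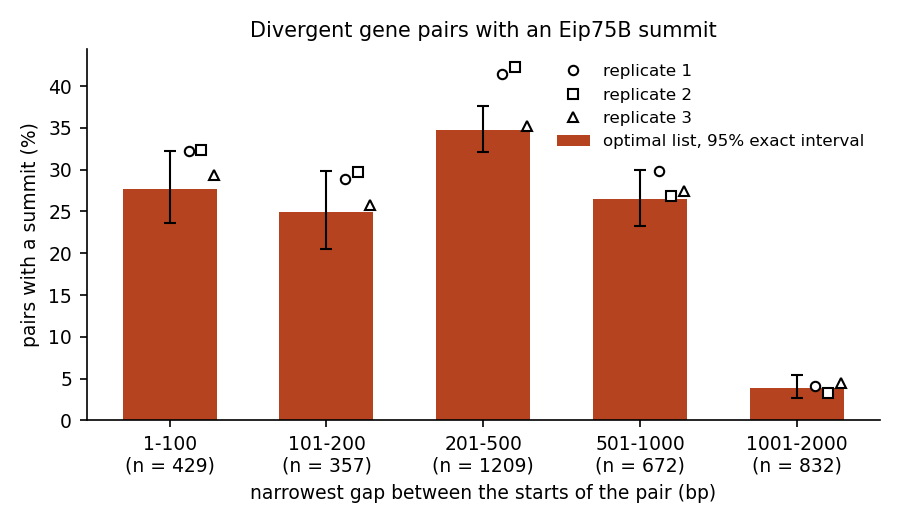
Percent of divergent gene pairs with a summit within 1 kb of both starts (y axis) by the narrowest gap between their starts in bp (x axis). Bars are the optimal list with 95% exact intervals and symbols are the replicates' top lists. The class from 200 to 500 bp is the highest in all 3 replicates, and the class over 1000 bp is at 3.85% in the optimal list.

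Most summits lay between the starts of their pair. Of the 859, 620 (72.2%, 95% exact interval 69.0% to 75.2%) fell between the starts of their pair, the pair being the one with the smallest sum of distances to the summit. The share in the top lists was 71.8% ± 4.02 (SD, n = 3), whereas on average 30.8% of the stretch where a summit could count lay between the starts. That choice of pair favours starts that enclose the summit. With a gap over 1000 bp the rule itself places the summit between the starts (48 of 48). A position upstream of the nearest start was not particular to divergent promoters, with 72.6% of their summits and 67.3% of those at other promoters. The median gap was 351 bp, with quartiles of 240 and 564 bp, and the median distance from summit to nearest start was 107 bp. The summit was nearer to the minus-strand start in 410 cases and to the plus-strand start in 445, and equally near in 4.

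The position of the summit varied with the gap. With starts over 200 and up to 500 bp apart, 347 of 431 summits (80.5%) lay between them, at a median of 62.0 bp from the midpoint and 109 bp from the nearer start. With starts over 500 and up to 1000 bp apart, 170 of 217 (78.3%) lay between them, at a median of 241 bp from the midpoint but 122 bp from the nearer start. With starts at most 100 bp apart, 16 of 81 (19.8%) lay between them and the rest lay beyond one of the starts, with a median of 71.0 bp to the nearer start over all 81. Replicates gave 80.7% ± 4.62, 78.0% ± 8.40 and 19.3% ± 4.07 between the starts in these 3 classes (SD, n = 3). The part of the stretch where a summit could count that lay between the starts was 20.1%, 55.9% and 2.95% in these 3 classes, below the observed share in each.

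**Figure D3:**
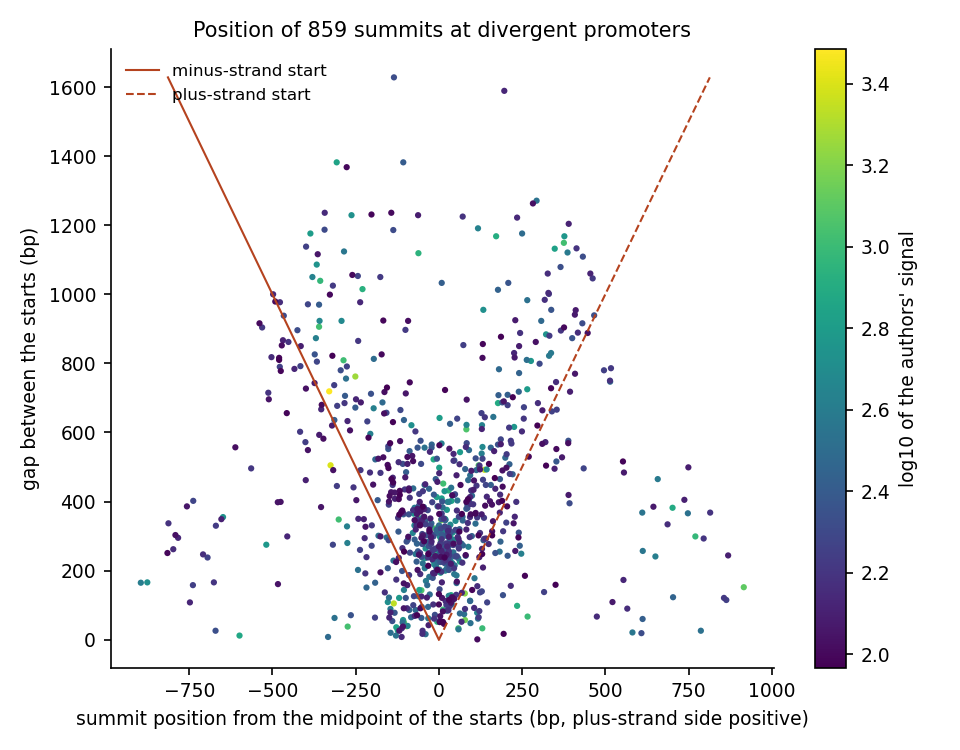
Position of each of the 859 summits from the midpoint of its pair of starts in bp (x axis, plus-strand side positive) against the gap between the starts in bp (y axis), coloured by log10 of the authors' signal. The solid and dashed lines are the minus-strand and plus-strand starts. Summits gather at the midpoint where the gap is between 200 and 500 bp and nearer to the lines where it is wider.

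The feature under a summit is partly fixed by the choice of summits between outward-facing genes, so its shares are given as a description. Of the 859 summits, 470 (54.7%) were intergenic, 216 (25.1%) lay in a 5′ UTR, 165 (19.2%) in an intron, 4 in a coding exon and 4 in a 3′ UTR. At other promoters, 34.5% of 2452 summits were intergenic, 17.1% lay in a 5′ UTR and 45.8% in an intron. Relative to the nearest start, 720 of the divergent-promoter summits (83.8%) lay from 200 bp upstream to less than 200 bp downstream, against 1037 (42.3%) of those at other promoters. The rule shapes these shares, since 43.9% of the sequence at divergent promoters and 21.9% of that at other promoters lies within 200 bp of a start. Among the 239 that lay outside their pair of starts, 171 (71.5%) were in a 5′ UTR.

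The signal of summits at divergent promoters was higher than that of other promoter summits in every replicate. The authors' signal, the peak caller's value per region, had a median of 184 (quartiles 128 and 312) at divergent promoters and 163 (quartiles 118 and 278) at other promoters in the optimal list. Signals were compared by rank within a list, where rank 1 is the strongest. In replicates 1, 2 and 3, the median ranks were 3300, 3658 and 3380 at divergent promoters and 3814, 3869 and 3978 at other promoters, a mean difference of −441 ± 204 ranks (SD, n = 3; exact sign-flip permutation p = 0.25). Divergent promoters made up 30.0% of the 941 promoter summits in the highest quartile of the optimal signal and 22.2% of the 815 in the lowest. They supplied 24 of the 100 strongest optimal peaks.

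Recovery in the top lists differed between divergent and other promoters by less than the spread over replicates. Of the 859 summits, 580 (67.5%, 95% exact interval 64.3% to 70.6%) were in the top lists of 3 replicates, 199 in 2, 79 in 1 and 1 in none. The share was 63.1% (61.1% to 65.0%) at other promoters and 65.2% over all 7803 optimal summits. Replicates 1, 2 and 3 held 88.2%, 88.0% and 81.8% of the divergent-promoter summits, against 81.4%, 85.4% and 84.6% of those at other promoters. Replicate 3 had the opposite order to replicates 1 and 2, and the mean difference of 2.22 percentage points had an SD of 4.82 (n = 3, exact sign-flip permutation p = 0.75). Without replicate 1 it was −0.0879 points and with the whole lists −0.289. It was larger, and positive in 3 of 3 replicates, at 7.29 points with starts within 250 bp and at 6.38 points with top lists cut to 0.5 of their length (exact sign-flip permutation p = 0.25 each). Across the summits, the ranks of any 2 replicates had a Spearman correlation of 0.756 to 0.812 over 816 to 823 summits, given as a description because all were picked as peaks in these libraries.

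The 12 strongest of these summits were among the strongest regions of each replicate. They were picked by signal in the optimal list, which was made from these same replicates, so their ranks are given as a description. The first, with an optimal signal of 3049 (rank 2), ranked 2, 2 and 1 in replicates 1, 2 and 3. It lay at X 2703882, 30 bp from where Ugalt (FBgn0024994), a gene for a UDP-galactose transporter, starts, and 689 bp from the start of eIF2Bbeta (FBgn0024996), a subunit of the exchange factor for the initiation factor eIF2. At 3R 31404667, a summit with a signal of 2499 ranked 8, 6 and 6 in the replicates. It lay 73 bp inside PNPase, which encodes a mitochondrial RNA-degrading enzyme, and 578 bp from the start of Gprk2, a gene for a G protein-coupled receptor kinase. Both summits were thus close to the start of only the minus-strand gene of the pair.

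Genes of mitochondrial ribosomal proteins took part in 3 of the 12 strongest. Among all 859 summits, 28 were at a gene of this family, with a median signal of 195, against 184 over all 859. The summit with a signal of 2219, at 2L 13835455 and ranks 14, 11 and 8, lay 109 bp from CenG1A, which encodes a GTPase-activating protein for Arf, and 383 bp from mRpS23. The one with 1848, at ranks 17, 27 and 20, lay between the arginine methyltransferase gene Art3 and mRpS10, 128 and 129 bp from their starts. The third, at mRpL41 and CG8079 with 1817, ranked 25, 34 and 14.

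The others of the 12 included Chro with Ssl1 (signal 2152, ranks 9, 14 and 11), where Chro encodes a chromodomain protein of interbands and the spindle and Ssl1 a subunit of the transcription factor TFIIH. That summit lay 83 bp inside Chro, at a gap of 105 bp. At Tcs5 and the ESCRT-III gene CHMP2B, the summit (signal 1816) stood 110 and 114 bp from the starts. The remaining 5 were at Fbw5 with CG9147, Pdrg1 with Pal1, CG11309 with CG7632, CG3437 with CG3552 and CG8372 with CG8360, with signals from 1638 down to 1429. All 12 were in each top list, with ranks from 1 to 54, as a choice by the highest optimal signal favours.

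Genes of cytosolic ribosomal proteins, the parts of the translating ribosome, were at a divergent-promoter summit in 41 of 93 cases (44.1%), against 11.4% of all genes. A divergent partner was present for 60 of the 93 (64.5%) and for 44.4% of all genes. Among genes with a partner, 68.3% of this family were at such a summit, against 25.5% of all genes. In the top lists the share at such a summit was 45.5% ± 5.08 (SD, n = 3). These summits kept to the side of the ribosomal gene: 34 of 47 were nearer to it than to its partner, with medians of 54.0 bp to the ribosomal gene and 249 bp to the partner. The share nearer to the ribosomal gene was 66.7%, 75.5% and 77.1% in replicates 1, 2 and 3.

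RpS27, paired with the nuclear pore gene Nup37, had its summit 13 bp from the RpS27 start and 131 bp from that of Nup37, with a signal of 664 and ranks 319, 914 and 195. RpL34b with CG8132 had a signal of 673, at ranks 275, 388 and 394. The highest signal of the family, 775, belonged to a summit 893 bp from RpS19b, beyond the start of its partner CG5854 and 511 bp from it. Both RpS19b and RpL34b have close paralogs, and whether reads were shared between copies was not tested.

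Genes of mitochondrial ribosomal proteins were also frequent, 27 of 73 (37.0%) against 11.4% of all genes, and 39.3% ± 4.81 in the top lists (SD, n = 3). Of these 73 genes, 59 (80.8%) had a divergent partner, against 44.4% of all genes. Among genes with a partner, 45.8% of this family were at such a summit, against 25.5% of all genes. Here 8 of 28 summits were nearer to the ribosomal gene and 20 to its partner, with medians of 153 and 154 bp. The share nearer to the listed gene was 35.3%, 24.1% and 30.8% in replicates 1, 2 and 3, so the replicate ranges of the mitochondrial and cytosolic families did not overlap (means of 30.1% ± 5.64 and 73.1% ± 5.60, SD, n = 3 each).

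**Figure D4:**
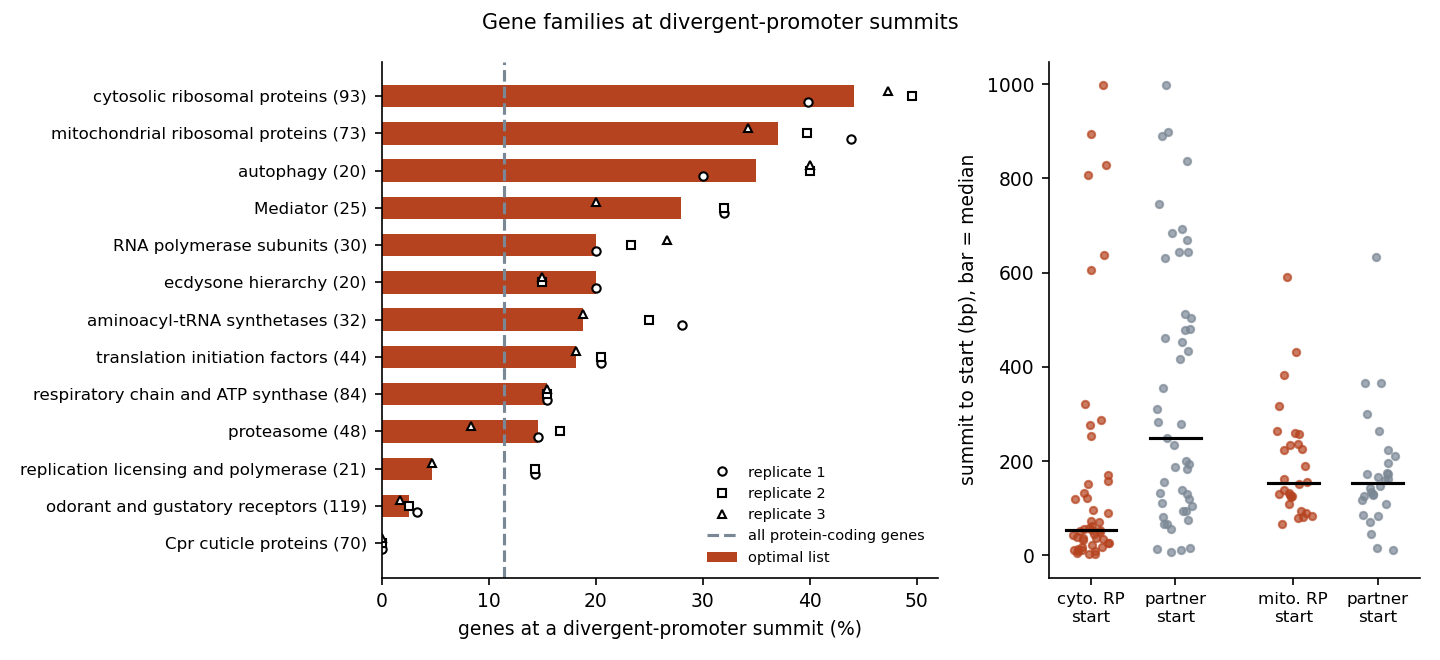
Left, percent of the genes of each list at a divergent-promoter summit (x axis; number of genes in brackets), with the optimal list as bars, replicates as symbols and all protein-coding genes as a dashed line. Right, distance in bp from each summit to the start of the cytosolic or mitochondrial ribosomal protein (RP) gene and to the start of its partner, with medians of 54.0 and 249 bp for the cytosolic family and 153 and 154 bp for the mitochondrial one.

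Among other families of basic functions, the shares in the optimal list ran down to 4.76%. Autophagy genes, which act when larval tissues are broken down at metamorphosis, were at such a summit in 7 of 20 cases (35%), against 11.4% of all genes. These were Atg2, Atg6, Atg8a, Atg9, Atg12, Atg17 and Atg18a, and all 7 bound autophagy genes were bound in this way. Their share was 36.7% ± 5.77 in the top lists (SD, n = 3), a range that overlaps that of the mitochondrial ribosomal proteins. A divergent partner was present for 16 of the 20 (80.0%), against 44.4% of all genes. Among genes with a partner, 43.8% of the autophagy genes were at such a summit, against 25.5% of all genes. Atg2, a lipid transfer protein gene, had the highest signal, 451, at 239 bp from its start and 92 bp from CG12093. Its summit ranked 759 and 772 in replicates 1 and 2 and lay in no region of replicate 3. Atg17 with the partner Xe7 had 428, with ranks 501, 1269 and 1406.

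Mediator genes, whose products bridge activators and RNA polymerase II, were at 7 of 25 (28.0%), led by MED30 with 601, MED27 with 424 and MED15 with 313. RNA polymerase subunits were at 6 of 30 (20.0%), led by Polr2H with 423, Polr2B with 289 and Polr2J with 282. The summit at Polr2H lay 125 bp from its start and 1 bp from that of CG11247. For aminoacyl-tRNA synthetases the count was 6 of 32 (18.8%), with the highest signals at LeuRS-m (524, at 959 bp, in an intron of Dhc64C), ArgRS (308) and ArgRS-m (223). For translation initiation factors it was 8 of 44 (18.2%), and after eIF2Bbeta the strongest were eIF4EHP (590) and eIF3h (342). Over all genes the share was 11.4%, and over genes with a divergent partner, which make up 44.4% of all, it was 25.5%. A partner was present for 76.0% of the Mediator genes, 66.7% of the polymerase subunits, 75% of the synthetases and 61.4% of the initiation factors. Among those with a partner, 36.8% of the Mediator genes, 30.0% of the polymerase subunits, 25% of the synthetases and 29.6% of the initiation factors were at such a summit.

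For the respiratory chain and ATP synthase it was 13 of 84 (15.5%), with ND-ASHI (776), ND-SGDH (354) and ND-MWFE (345) at the head. ND-ASHI shares its promoter with the fumarase gene Fum1. Proteasome subunits had 7 of 48 (14.6%), led by Rpn5 (511), Rpn3 (358) and Rpn13 (221), close to the 11.4% of all genes. Among genes with a partner, the shares were 26.5% for the respiratory chain and ATP synthase and 23.3% for the proteasome, against 25.5% of all genes. Replication genes had 1 of 21 (4.76%) in the optimal list, although 18 of the 21 have a divergent partner. That is 5.56% of the replication genes with a partner. In the top lists of replicates 1, 2 and 3, 14.3%, 14.3% and 4.76% of the replication genes were at such a summit. The single replication gene of the optimal list was the replicative helicase gene Mcm2, beside RPA1, with a signal of 256 and ranks 2293, 1661 and 2652.

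Chemoreceptor and cuticle genes were rarely reached, and a smaller share of them than of all genes had a divergent partner. Among 119 odorant and gustatory receptor genes, 3 (2.52%) were at a divergent-promoter summit, Or88a, Gr63a and Or9a, and 25 had a divergent partner. In all 3 the summit was nearer to the partner, with medians of 847 bp to the receptor gene and 75 bp to the partner. Of 70 genes for Cpr cuticle proteins, 0 were at such a summit and 16 (22.9%) had a partner, so the share among those with a partner was also 0%.

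Of the 20 genes of the ecdysone hierarchy, 4 were at a divergent-promoter summit, usp, Hr3, tai and crc, while 7 had a divergent partner. Those 4 are 20.0% of the list, against 11.4% of all genes, and 57.1% of its genes with a partner, against 25.5% of all genes with one. With any optimal summit within 1 kb of a start counted, 17 of the 20 (85.0%) were bound, against 23.6% of all genes. A gene with more annotated starts has more sequence in which a summit counts, and the part of that was not tested.

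usp encodes the partner of the ecdysone receptor. Its summit, with a signal of 236 and ranks 1644, 3586 and 2267, lay 214 bp from the usp start and 342 bp from that of CG4313 on X. Hr3, the receptor that shares the E75 site, is paired with the histidine decarboxylase gene Hdc at a gap of 640 bp, and 2 summits lay between them. The first, with a signal of 187, ranked 4658, 2554 and 2494 and lay 375 bp from Hr3 and 265 bp from Hdc.

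The second Hr3 summit, with a signal of 162, ranked 9322, 2554 and 3734, so that it was outside the top list of replicate 1. It lay 65 bp from Hdc. Both Hr3 summits fall in the same region of replicate 2, which gives them the same rank there. tai, a coactivator of the ecdysone receptor, had a summit with a signal of 179 at 142 bp from its start and 122 bp from that of CG9586, with ranks 3016, 4509 and 3752. The summit between crc, which encodes an ATF4-like factor, and Mondo had a signal of 102 and ranks 4714, 10458 and 11823, in the top list of replicate 1 only. Hr39, Hr4 and Smr have a divergent partner but no summit within 1 kb of both starts, and the other members, Eip75B and EcR among them, have no such partner.

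The nuclear receptor gene ERR shares a promoter with Atg18a, whose product binds phosphoinositides during autophagy. The summit between them at 3L 8186817 had a signal of 386, ranked 794, 1073 and 1465, and lay 146 bp from ERR and 40 bp from Atg18a, at a gap of 186 bp.

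The extremes of the gap were Atg6 with Pisd, whose starts are 1 bp apart, and Syx1A with CG10694, whose starts are 1628 bp apart. The summit at Atg6 and Pisd, with a signal of 103, ranked 24500, 7379 and 4287, and that at Syx1A ranked 2754, 3081 and 3057.

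Similar numbers of summits lay just inside and just outside the 1 kb limit. There were 52 summits with the farther start at 901 to 1000 bp, and 54 other promoter summits that missed by at most 100 bp. Among the last inside were a summit at 999 bp, at ATPsynCF6 with Sec13 (signal 122), and 1 at 998 bp, at grp with CG31807 (signal 706). The first outside were at 1002 bp (wde with CG12935, signal 744), 1003 bp (Amun with prtp, 130) and 1005 bp (CG10055 with lap, 158).

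The DRE and the BEAF-32 site were more frequent at divergent-promoter summits than at other promoter summits, and they had no lower share at the midpoints of divergent pairs without a summit. A DRE (TATCGATA) lay within 50 bp of 34 of the 859 summits (3.96%, 95% exact interval 2.76% to 5.49%), of 27 of 2452 summits at other promoters (1.10%, 0.727% to 1.60%) and of 0.871% of all optimal summits. The top lists gave 4.16% ± 0.222 at divergent promoters and 1.19% ± 0.313 at other promoters (SD, n = 3), higher at divergent promoters in 3 of 3 replicates (exact sign-flip permutation p = 0.25, Benjamini-Hochberg adjusted over 10 motifs 0.357). Windows of the same length at the midpoints of pairs with a gap of up to 1 kb held it in 4.09% of 807 bound pairs and in 5.22% of 1860 pairs with no summit. Of the 34 summits with a DRE, 16 (47.1%) were in each top list, against 564 of 825 (68.4%) without one, and their median signals were 152 and 185.

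The BEAF-32 site CGATA, which every DRE contains, was found at 20.8% of divergent-promoter summits, 13.9% of other promoter summits and 12.3% of all. At midpoints it was in 20.8% of bound pairs and 24.8% of pairs with no summit. The GAGA motif GAGAG, bound by the factor Trl, had the opposite order, with 9.20% at divergent promoters and 15.7% at other promoters, and 8.77% ± 0.892 and 15.5% ± 2.04 in the top lists (SD, n = 3). In windows centred 300 bp to the left, GAGAG had the same order, with 9.31% at divergent promoters and 18.2% at other promoters. Motif 1 was present at 14 divergent-promoter summits (1.63%) and at 16 of the other promoter summits (0.653%). At midpoints, Motif 1 was in 1.86% of bound pairs and 2.31% of pairs with no summit. Each of these orders between divergent-promoter and other promoter summits held in 3 of 3 replicates, with the same p as for the DRE. With starts within 250 bp in place of 1 kb, the mean difference between divergent and other promoters was 0.0913 points for Motif 1 (exact sign-flip permutation p = 0.5), against 0.961 here. It was then 3.53 points for the BEAF-32 site, against 6.89 here, and 1.89 for the DRE, against 2.97 here, with 3 of 3 replicates in the same direction for both.

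The E75/Hr3 site was rare. ANTAGGTCA occurred within 50 bp of 4 of the 859 summits (0.466%, 95% exact interval 0.127% to 1.19%), of 4 of 2452 at other promoters (0.163%) and of 0.295% of all optimal summits. In windows centred 300 bp to the left of the divergent-promoter summits, 2 held it. Its core AGGTCA, present in each full site, was found at 14 summits (1.63%), at 2.20% of other promoter summits and at 2.51% of all, and in 30 of the windows 300 bp to the left (3.49%), against 1.51% of such windows at other promoters. The mean difference for the core, −0.511 points over the top lists, was −0.0120 with starts within 250 bp and −0.0192 for summits between the starts (exact sign-flip permutation p = 1.0 each). At the midpoints of pairs it was in 1.61% of bound pairs and 2.37% of pairs with no summit.

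**Figure D5:**
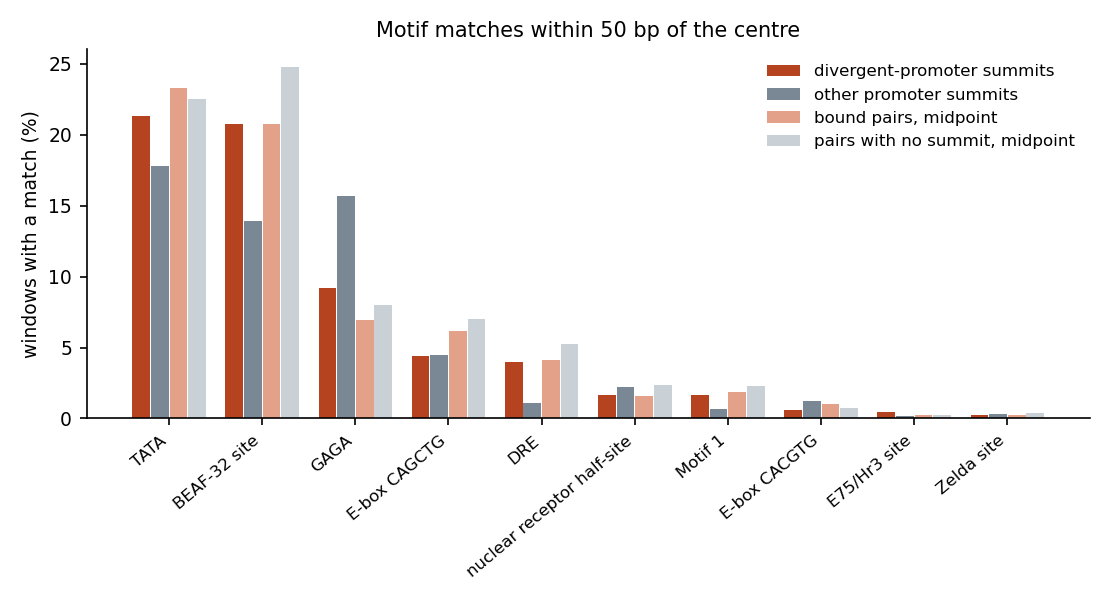
Percent of windows, reaching 50 bp to each side of the centre, with a match on either strand (y axis) for each of the 10 motifs (x axis). The nuclear receptor site on the axis is AGGTCA. Bars show divergent-promoter summits, other promoter summits, and the midpoints of bound and of unbound divergent pairs. The DRE and the BEAF-32 site are at 3.96% and 20.8% of divergent-promoter summits, and at 5.22% and 24.8% of the midpoints of pairs with no summit.

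The windows were rich in A and T. Median GC content was 32.7% at divergent-promoter summits and 36.6% at other promoter summits, and 44.6% and 43.6% in windows 300 bp to the left. The TATA motif TATAAA was in 21.3% of divergent-promoter summits, 17.8% of other promoter summits and 20.3% of all, and in 10.5% of the windows 300 bp to the left of the divergent-promoter summits. At midpoints, bound pairs had a median GC content of 29.7% and a TATA share of 23.3%, and pairs with no summit had 32.7% and 22.5%. The share of TATAAA moves with the A and T content of the windows, and the part of that was not tested.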

How the data were processed

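Peak lists on dm6 were deposited by the authors for each of 3 biological replicates and for the replicates pooled, as input for IDR, with a list of optimal peaks after IDR, per the labels that accompany the files. No source used here states the aligner, peak caller or IDR threshold. The signal and the −log10 q-value of each region are the authors' deposited values. Signal was compared within a list only, as rank, and q-values were not used. Lists on dm3 were not used.

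The summit was the deposited start plus the summit offset, given 1-based. Gene models were 13945 protein-coding genes of Ensembl release 115 with 19607 transcript starts on 6 arms, and sequence was the RefSeq copy of Release 6. Python 3.11.15, numpy 2.4.6, pandas 2.3.3 and scipy 1.17.1 were used, and scripts were tested on simulated data. Intervals are 95% exact (Clopper-Pearson or Poisson). Motifs were searched on both strands. Replicate numbers come from the labels. The labels call them biological replicates without saying what was separate, so p-values measure the spread between these samples.

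The rule for named genes took the 12 strongest summits, the narrowest and widest gap, all summits at ecdysone hierarchy genes, the 3 strongest of each other list, the pair with the most summits and those nearest the 1 kb limit. The result for the pair with the most summits is not reported here. ERR was named with Atg18a, and printed sequences also show pairs with motifs. Ecdysone hierarchy genes were listed by symbol and other families found by symbol pattern. The summits and lists were chosen with earlier results of these data known. Summit densities per Mb, annotated features, GC content, the split by the nearer gene and the printed sequences were added after the values were seen.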

Additional observations from a re-analysis of the deposited data

How the results depend on the processing

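Of 185 values under alternatives, 156 were counted as the same, 22 as moved and 7 as reversed. A tested difference counted as the same when it kept its sign, whatever its size or p, so differences that shrank are among the 156. The number of summits counted as the same within a set ratio of the main value. Other values did so when they moved by less than the SD over replicates. With starts within 500 bp, the share of divergent promoters among promoter summits was 23.2%, against 25.9% with 1 kb. With starts within 250 bp it was 18.6%, with 369 summits, of which 75.1% were in all top lists. With the 5′-most start of each gene the share was 29.7%, and 64.0% lay between the starts. In the stronger part of the peaks the share was 28.5% with 482 summits, 18.4% of pairs up to 1 kb and 2.52% of wider pairs were bound, and summits lay a median of 114 bp from a start. Fewer peaks lower these bound shares by construction. Counting summits between the starts only gave a share of 18.7%.

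Recovery in all replicates was 93.5% with whole lists and 39.3% with top lists cut to 0.5 of their length, and its difference from other promoters reversed to −0.289 points with whole lists. In windows reaching 100 bp to each side, the differences for the E-boxes CAGCTG and CACGTG reversed to 1.45 and 0.261 points. The cause was not tested. Leaving out each replicate gave 26.1% to 28.0% for the share, 73.3% to 78.1% for recovery in the other 2 and −0.0879 to 4.72 points for its difference. It gave 22.9% to 24.3% for pairs bound up to 1 kb, 109 to 112 bp to the nearest start, −0.669 to 0.130 points for CAGCTG and −0.274 to 0.0424 for CACGTG. There, summits had to lie in both other top lists, which lowers the bound share.

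The density ratio within 200 bp, an analysis added after the values were seen, was 1.04 (log2) over the replicates, from 0.894 to 1.14 without each replicate, and 1.91 with starts within 250 bp. The rank difference was −5.65% of the list length, −18.0% with starts within 250 bp and −0.701% in the stronger part of the peaks. No paired analysis was possible because there is 1 group of samples, and differences between kinds of summit were already taken within each replicate. Depth is unknown, so a promoter without a summit cannot be told from one with too few reads.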

Other observations

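The divergent-promoter share of promoter summits was 21.6% on X, 26.1% on 2L, 23.4% on 2R, 28.3% on 3L, 29.2% on 3R and 26.7% on 4, where there were 4 such summits. A single summit at 3R 21365429 counted for 21 pairs because the annotation splits the trans-spliced gene mod(mdg4) into many genes there, and 798 of the 859 summits had 1 pair.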
